A study of Mus musculus with 82 samples.

Results

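The 7 genes described here are transcripts of blood cells: the adult hemoglobin genes Hba-a1, Hba-a2, Hbb-bs and Hbb-bt, the red cell heme synthesis gene Alas2, and the neutrophil genes S100a8 and S100a9. They were chosen by gene symbol from the 43629 genes of the RGC and superior colliculus count tables, with their levels in these libraries already known, among them the difference between “OHT” and “SHAM” RGCs. All 7 were found in both tables. The study sequenced RNA of sorted RGCs (1 retina per sample) and of whole superior colliculi, with 41 libraries per tissue. Each tissue had 11 “OHT” libraries and 10 of each other group, which were “SHAM”, “OHT + DREADD” and “SHAM + DREADD”. The mice were Vglut2-ires-Cre × Thy1-STOP-YFP crosses of either sex, whose age the sample records give as 10 weeks and whose genotype they give as WT. The schedule in the study's methods adds up to an older age at the end. Microbeads were placed in the right eye to raise its pressure for 5 weeks (“OHT”), or salt solution was given (“SHAM”). A viral vector injected in the superior colliculus carried, under the CaMKIIα promoter, either the activating receptor hM3D(Gq) with mCherry (“DREADD” groups) or mCherry alone. All 4 groups received the receptor's drug, clozapine-N-oxide (CNO), so “SHAM” and “OHT” also carry a vector and the drug. RGCs were sorted as living YFP+ cells, and colliculi were frozen whole after cervical dislocation, and no perfusion is described for these mice.

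Hemoglobin carries oxygen in red blood cells and is built of α-globin and β-globin chains, each holding a heme group. Mouse red cells use a pair of near-identical α-globin genes (Hba-a1, Hba-a2) and a pair of adult β-globin genes (Hbb-bs, Hbb-bt). Alas2 encodes the red cell form of the enzyme that starts heme synthesis. Young red cells (reticulocytes) still hold globin mRNA, so these transcripts are widely read as a mark of blood in a tissue sample. S100a8 and S100a9 encode the subunits of calprotectin, an abundant protein of neutrophils. In a bulk sample, fewer cells of a type and less RNA per cell cannot be told apart.

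Library totals were 3534776 to 6889040 counts (median 5107338) for RGCs and 1766207 to 4239835 (median 2926193) for colliculi. Levels are given as CPM, a gene's counts divided by the library total and scaled to a total of 1000000, and CPM are not corrected for gene length. One “SHAM” colliculus (replicate 1) carries a treatment entry of another group. It was kept in “SHAM” by its title, and leaving it out changed no call on these genes. Sex was unequal between the groups: Xist was above the Y-linked genes in all 10 “SHAM + DREADD” animals, in 5 of 10 with “OHT + DREADD”, in 2 of 11 with “OHT” and in 2 of 10 with “SHAM”, in both tissues alike.

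The globin genes lie in 2 clusters, Hba-a1 and Hba-a2 on chromosome 11 and Hbb-bs and Hbb-bt on chromosome 7 (GRCm38, the mm10 build). S100a8 and S100a9 neighbour each other on chromosome 3, and Alas2 is on the X chromosome. All 7 are protein coding in GENCODE M21. Copies within a pair share much sequence, which bears on counts from which reads with several alignments were discarded. Of the 50-base windows of the longest Hba-a1 transcript, 67.5% also occur in Hba-a2, and 86.9% of those of Hba-a2 occur in Hba-a1. The corresponding shares were 65.8% for Hbb-bs and 58.3% for Hbb-bt. In the last 300 bases, where the 3′-end reads of the colliculi fall, 92 of 251 windows of Hbb-bs are shared with Hbb-bt, against 201 of 251 windows of Hba-a1 with Hba-a2. The counts of each globin therefore come from its own windows only, and levels of single copies are uncertain. Alas2, S100a8 and S100a9 shared no window with another gene.

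The promoters of the globins are shown as a description, and no link to how these genes varied over the colliculi was tested. The stretches are the 250 bases before the RefSeq start site (GRCm38.p6), with 4 motifs in capitals, searched on both strands. GATAA is the core of sites of GATA factors, and CACCC that of sites of erythroid Krüppel-like factors. The other two are the general promoter elements CCAAT, which NF-Y binds, and TATAA, the TATA box. No motif overlaps another in these stretches. Hba-a1 is at chr11:32283422-32283671 on the plus strand, Hbb-bs at chr7:103827929-103828178 and Hbb-bt at chr7:103813924-103814173, both on the minus strand.
Hba-a1: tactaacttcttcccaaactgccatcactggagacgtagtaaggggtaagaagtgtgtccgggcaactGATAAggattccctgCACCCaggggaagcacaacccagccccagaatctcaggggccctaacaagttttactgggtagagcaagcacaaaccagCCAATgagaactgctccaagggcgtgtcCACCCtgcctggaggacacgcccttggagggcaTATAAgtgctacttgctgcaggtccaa
Hbb-bs: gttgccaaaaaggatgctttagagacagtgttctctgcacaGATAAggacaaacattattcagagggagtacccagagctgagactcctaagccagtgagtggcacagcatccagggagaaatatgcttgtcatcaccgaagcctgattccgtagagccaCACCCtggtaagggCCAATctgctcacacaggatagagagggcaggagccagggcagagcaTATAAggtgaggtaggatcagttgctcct
Hbb-bt: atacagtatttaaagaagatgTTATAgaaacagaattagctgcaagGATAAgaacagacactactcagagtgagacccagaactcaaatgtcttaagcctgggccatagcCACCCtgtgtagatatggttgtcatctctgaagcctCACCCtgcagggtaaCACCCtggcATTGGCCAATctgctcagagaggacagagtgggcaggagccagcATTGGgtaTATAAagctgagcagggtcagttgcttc
The promoter windows of Hba-a1 and Hba-a2 were identical over 297 aligned bases after a shift of 3 bases. All 4 globin promoters held each of the 4 motifs. In all 3 stretches TATAA lay 27 to 29 bases before the start site at its far end, and CCAAT of the plus strand lay 88, 76 and 75 bases before it in Hba-a1, Hbb-bs and Hbb-bt. Hbb-bt held 2 more CACCC than Hbb-bs, 2 inverted CCAAT and 1 inverted TATAA. The Alas2 promoter held all of these motifs except CCAAT. That of S100a8 held the TATA box alone. That of S100a9 held the GATA core and 1 CACCC. Of 32851 promoters of this length, GATAA occurred in 22.6%, CCAAT in 33.8%, CACCC in 52.0% and TATAA in 22.8%. A match is a description of the letters only.

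In RGC libraries, hemoglobin RNA was low and sat in few retinas. At least 1 globin read was found in 40 of 41 libraries, but 3 libraries held 66.3% of all 9223 globin reads: “SHAM” replicates 2 and 6 and “SHAM + DREADD” replicate 8. The summed level of the 4 globins was 393, 576 and 329 CPM in these 3, against 0 to 56.3 CPM (median 12.1) in the other 38. The 2 “SHAM” libraries alone held 88.9% of the globin reads of their group, and the single “SHAM + DREADD” library held 74.7% of those of its group.

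**Figure D1:**
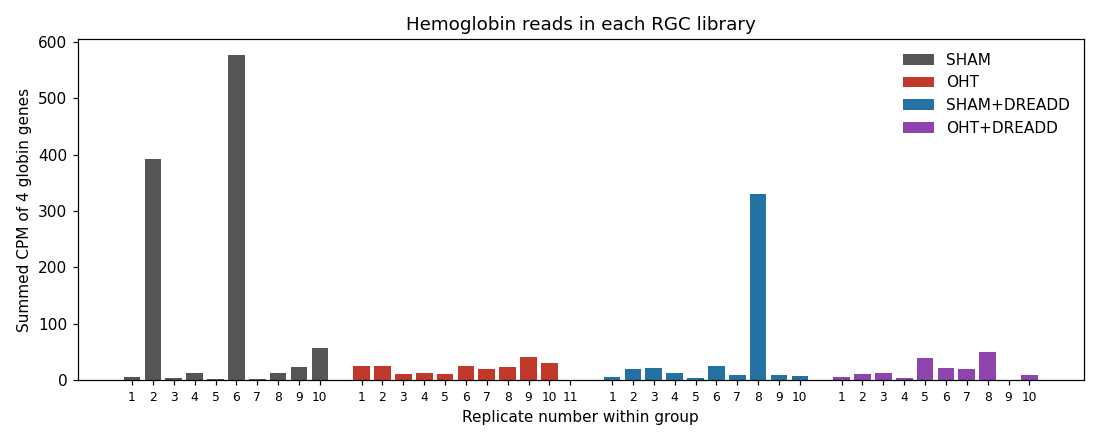
Summed CPM of Hba-a1, Hba-a2, Hbb-bs and Hbb-bt (y axis) in each RGC library, with the replicate number on the x axis and 1 colour per group. “SHAM” 2, “SHAM” 6 and “SHAM + DREADD” 8 stand at 393, 576 and 329 CPM, and no other library passes 56.3.

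Hba-a1 stood at 132 CPM (95% Poisson interval 123 to 142) in “SHAM” 2, 168 (155 to 181) in “SHAM” 6 and 116 (107 to 126) in “SHAM + DREADD” 8. Its next highest level was 17.0 CPM, in “SHAM” 10. These intervals, like all others here, cover counting error only. Hba-a2 was at 123, 145 and 91.6 CPM in the same 3 libraries, and at most 24.3 elsewhere. Hbb-bs was at 97.7, 204 and 86.1 CPM, and at most 19.7 elsewhere. Hbb-bt was at 39.8, 59.1 and 35.6 CPM, and at most 6.33 elsewhere. The 4 globins were thus high in the same 3 retinas.

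The groups overlapped for each globin. Over all libraries, the 3 globin-rich ones included, the group medians of Hba-a1 were 3.62 CPM in “SHAM”, 6.05 in “OHT”, 3.78 in “SHAM + DREADD” and 5.82 in “OHT + DREADD”. For Hbb-bs they were 2.72, 4.00, 2.58 and 2.37 CPM in the same order. Hbb-bt had no read in 6 of 10 “SHAM” libraries, and its median was 0 there and at most 0.433 CPM in the other groups. The mean of the summed globins was 109 ± 203 CPM in “SHAM” (SD, n = 10), 20.4 ± 11.3 in “OHT” (n = 11), 44.4 ± 100 in “SHAM + DREADD” (n = 10) and 17.2 ± 16.1 in “OHT + DREADD” (n = 10). The means of “SHAM” and “SHAM + DREADD” were the highest, while their medians of 13.0 and 10.6 CPM lay near or below those of “OHT” (23.8) and “OHT + DREADD” (11.3).

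**Figure D2:**
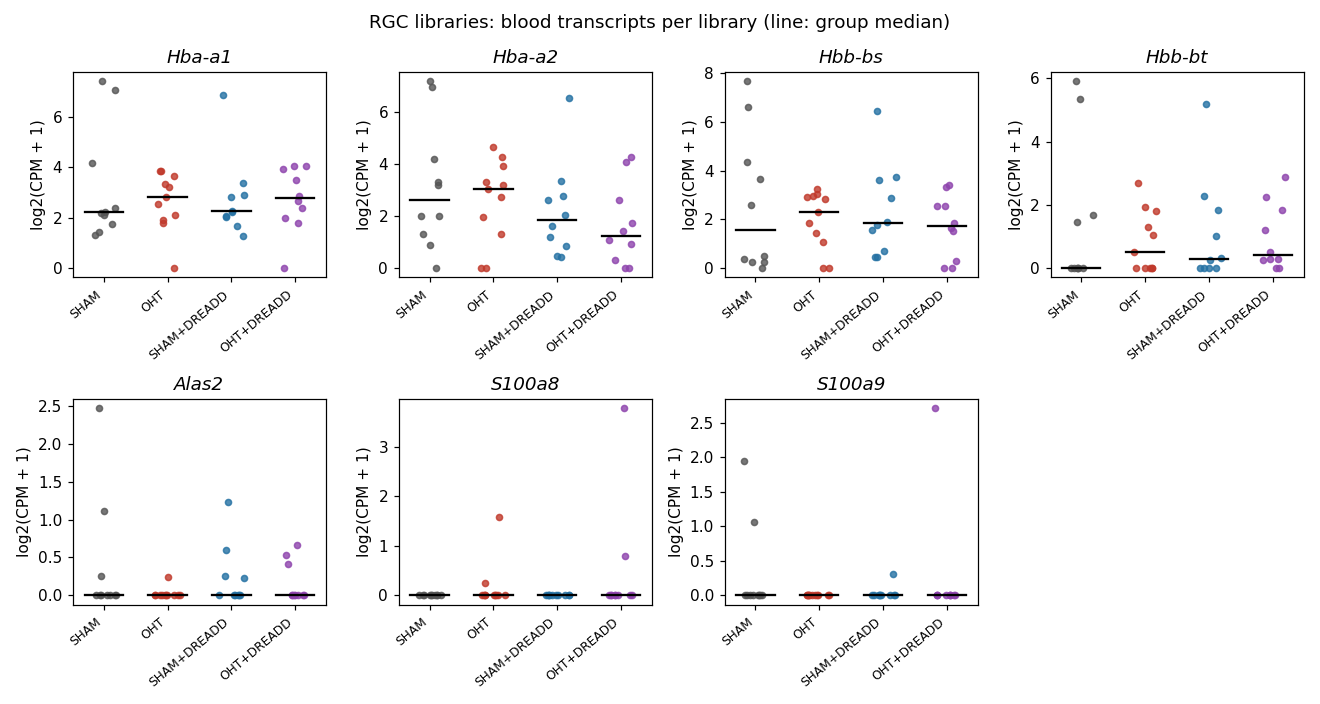
log2(CPM + 1) of the 7 genes in RGC libraries by group, 1 point per library, with a line at the group median. The globin points of 2 “SHAM” libraries and 1 “SHAM + DREADD” library lie far above the rest, and the medians of S100a8 and S100a9 are 0 in all 4 groups.

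Alas2 reads were few. Of 54 reads in 41 libraries, 25 were in “SHAM” 2 (4.52 CPM), 8 in “SHAM” 1 and 7 in “SHAM + DREADD” 8. The library richest in globin, “SHAM” 6, had 0, and “SHAM” 1 had a summed globin level of only 6.39 CPM. “OHT” held 1 read in 11 libraries. In “SHAM” 2, “SHAM” 6 and “SHAM + DREADD” 8 the summed level of 14 further red cell genes was 128, 165 and 151 CPM. The other 38 libraries had 85.4 to 232 CPM. Bpgm and Fech had the highest means of these genes over all RGC libraries (113 and 44.7 CPM). The 3 libraries had reads of 6, 3 and 5 of the 14, and for “SHAM” 6 these were Bpgm, Fech and Slc25a37. Markers of some other cells were high in 2 of the 3 globin-rich libraries. The summed level of 10 endothelial genes was 46.5, 39.4 and 132 CPM in “SHAM” 2, “SHAM” 6 and “SHAM + DREADD” 8, against 11.6 to 107 CPM in the other 38. That of 8 platelet genes was 6.33, 2.07 and 5.94 CPM, within the 0 to 22.2 CPM of the others. That of 5 astrocyte genes was 167, 56.8 and 388 CPM, against 19.7 to 292. That of 5 oligodendrocyte genes was 32.0, 15.8 and 25.3 CPM, against 1.11 to 26.4. That of 8 neuronal genes, a list made for the colliculus (Snap25 and Gad1 among them), was 9895, 16156 and 4792 CPM, against 6655 to 17316. That of 10 RGC genes was 514, 1044 and 708 CPM, within the 459 to 1912 of the others. For 10 microglia genes it was 60.4, 8.30 and 74.2 CPM, within 6.14 to 136. “SHAM + DREADD” 8 was thus above all 38 others for endothelial and astrocyte genes. It was below them for the neuronal list but not for the RGC list. “SHAM” 2 was above them for oligodendrocyte genes. “SHAM” 6, the richest in globin, was within their range for all of these lists. The part of these cells in the globin levels was not tested. The colliculi that carry the same 3 group and replicate numbers were not rich in globin, ranking 13, 27 and 33 of 41. In all 41 same-numbered pairs of a retina and a colliculus the sex-linked genes matched, although the labels do not say that a number marks 1 animal.

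The comparison of “OHT” with “SHAM” RGCs was in view when the genes were chosen, and it and the comparisons that share its libraries are given as a description. The log2 fold change of “OHT” over “SHAM” was -2.30 for Hba-a1, -1.89 for Hba-a2, -2.97 for Hbb-bs, -2.74 for Hbb-bt, -1.25 for Alas2 and -1.002 for S100a9. None of these 6 was among the DEGs (adjusted p up to 0.1, with an absolute log2 fold change from 1.3 up), here 0.0686% of 17491 genes tested, and S100a8 was below the filter. At the same cut-offs the study reported far more DEGs here, and in “OHT + DREADD” against “OHT” of both tissues. Its target genes of predicted regulators in “OHT” RGCs include Alas2 (for STAT3) and S100a9 (for IL12B). Why the 2 analyses differ was not tested. With no filter on low counts all 4 globins were DEGs. With limma-voom the values were -0.75, -0.62, -0.24 and -0.43 for Hba-a1, Hba-a2, Hbb-bs and Hbb-bt, and DESeq2 gave 1.33 for Hbb-bt. The sizes for Alas2 and S100a9, which had 1 and 0 reads in “OHT”, depended on the method. They were -2.57 and -2.32 with a prior count of 0.5, -1.52 and -3.47 in DESeq2, and -0.52 and -0.46 with the replicate block. Without “SHAM” 2 and 6, a setting chosen after seeing the data, the values were +0.51, +0.61, -0.18 and +0.90 for the 4 globins. The lower globin level in “OHT” than in “SHAM” thus rested on those 2 retinas for Hba-a1, Hba-a2 and Hbb-bt, and for most of its size for Hbb-bs.

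In the comparison of stimulation without OHT the same libraries, and a sex covariate, moved the values. “SHAM + DREADD” over “SHAM” gave -1.22, -1.47, -1.51 and -1.28 for Hba-a1, Hba-a2, Hbb-bs and Hbb-bt, with no member among the DEGs (0.0115% of genes tested). These became -0.0063, -0.65, -0.015 and +0.62 without the 3 globin-rich libraries. With sex as a covariate they turned to 2.15, 2.64, 2.05 and 1.83, in a comparison in which sex was the most unequal. Xist was above the Y-linked genes in all 10 “SHAM + DREADD” libraries but in only 2 of 10 “SHAM” libraries. The adjusted values thus rest on those 2, “SHAM” 7 and 8, with summed globins of 2.52 and 13.3 CPM. Sex and single libraries cannot be told apart here. DESeq2 gave 0.0018 for Hba-a1 and 0.91 for Hbb-bt, and limma-voom 0.022 for Hbb-bs. “OHT + DREADD” over “OHT”, which holds none of the 3, gave 0.24, -0.77, -0.14 and 0.23 for the 4 globins and 1.53 for S100a8 (DEGs were 0.0874% of genes tested). Sex as a covariate turned Hba-a1 to -0.14 and Hbb-bt to -0.57. The value of S100a8, from 4 libraries with reads, was -1.16 in DESeq2, 0.32 in limma-voom and 0.53 with sex.

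“OHT + DREADD” against “SHAM + DREADD” does not use the “SHAM” or “OHT” libraries and was tested with edgeR's quasi-likelihood test, with p-values adjusted over all genes. Of the 7 genes, 4 passed the filter and 0 were DEGs, beside 0.041% of all genes tested. DESeq2 and limma-voom called none of the 4 either. At an unadjusted p under 0.05 there was 1 of the 4, beside 7.23% of all genes tested. That gene was Hbb-bs, at 12.4 ± 26.2 CPM in “SHAM + DREADD” and 3.52 ± 3.53 in “OHT + DREADD” (SD, n = 10 each), with a log2 fold change of -1.61 (SE 0.75, adjusted p = 0.637 in edgeR). Without “SHAM + DREADD” 8 it was -0.31, and those of Hba-a1, Hba-a2 and Hbb-bt turned to +0.75, +0.49 and +0.49.

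The neutrophil pair had few reads in sorted RGCs. S100a8 had 78 reads in 4 of 41 libraries, 64 of them in “OHT + DREADD” replicate 8 (12.7 CPM, 95% interval 9.74 to 16.2) and 9 in “OHT” 11. It had 0 reads in the 10 “SHAM” libraries, which allows up to 0.0623 CPM over the group, and 0 in the 10 “SHAM + DREADD” libraries, which allows up to 0.0581. S100a9 had 46 reads in 4 libraries, 28 in “OHT + DREADD” 8 (5.54 CPM), 11 in “SHAM” 6 and 6 in “SHAM” 7, and 0 in the 11 “OHT” libraries (up to 0.0537 CPM). Most reads of either gene were thus in 1 retina, which was not among the 3 globin-rich ones.

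In the colliculus, hemoglobin RNA was present in every library, with wide ranges within each group. Hbb-bs ran from 53.5 to 620 CPM (median 227), an 11.6-fold span. In “SHAM” it was 53.5 to 620 (median 228), in “OHT” 168 to 558 (227), in “SHAM + DREADD” 103 to 465 (266) and in “OHT + DREADD” 107 to 349 (174). The ranges overlapped in every pair of groups. The lowest and the highest library of the tissue were both in “SHAM”.

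Hba-a1 was 28.4 to 267 CPM (median 98.3) in “SHAM”, 68.6 to 329 (114) in “OHT”, 60.1 to 251 (117) in “SHAM + DREADD” and 55.5 to 181 (84.6) in “OHT + DREADD”. Hba-a2 had medians of 72.7, 75.6, 84.7 and 62.0 CPM in the same order, and a range over all libraries of 21.1 to 211. Hbb-bt was 16.7 to 203 CPM (68.3) in “SHAM”, 55.4 to 150 (72.4) in “OHT”, 31.9 to 133 (73.4) in “SHAM + DREADD” and 26.0 to 83.2 (41.1) in “OHT + DREADD”. The median of every globin was lowest in “OHT + DREADD”. Alas2 was far lower, at 0 to 10.6 CPM, with medians of 2.44, 4.01, 4.26 and 3.04.

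**Figure D3:**
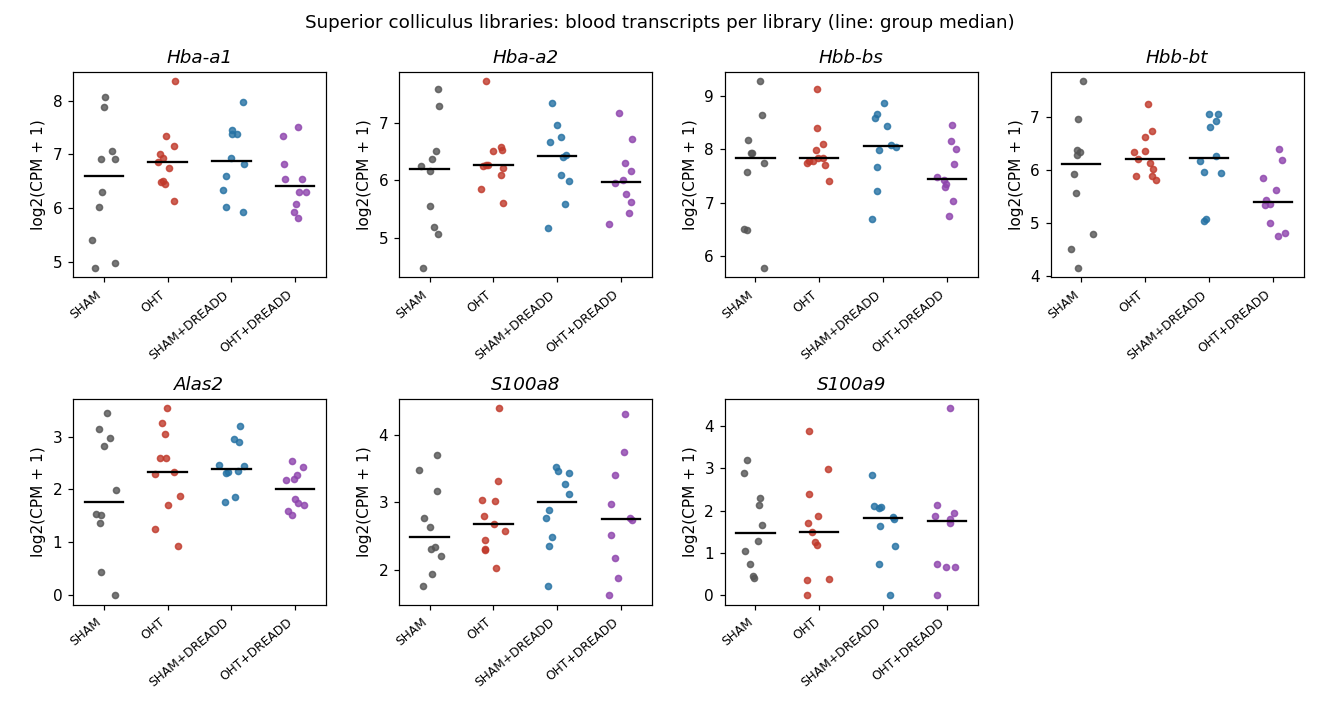
log2(CPM + 1) of the 7 genes in colliculus libraries by group, 1 point per library, with a line at the group median. Groups overlap for every gene, and the median of Hbb-bt is 41.1 CPM in “OHT + DREADD” against 68.3 to 73.4 in the other groups.

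No change of these genes with OHT alone was detected in the colliculus. In “OHT” against “SHAM” all 7 log2 fold changes lay between 0.15 and 0.26, with SEs of 0.27 to 0.45, and 0 of 7 were DEGs (absolute log2 fold change from 0.5 up in this tissue), beside 0.0193% of 15578 genes tested. None had an unadjusted p under 0.05, beside 4.95% of all genes tested, and DESeq2 and limma-voom called none. For Hbb-bs the 95% interval of the log2 difference was -0.38 to 0.70, and differences within it could not be resolved. No change was detected with stimulation in the absence of OHT either. “SHAM + DREADD” over “SHAM” ran from -0.09 (S100a9) to 0.27 (Hbb-bs), with 0 of 7 called by any of these tools. DEGs made up 0.0842% of genes tested. At an unadjusted p under 0.05 there were 0 of the 7, beside 9.54% of all genes tested.

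The mean level of each of the 5 red cell genes was lowest in stimulated OHT colliculi, and the difference to “OHT” was largest for Hbb-bt. Hbb-bt was 46.6 ± 19.0 CPM in “OHT + DREADD” (SD, n = 10) and 80.9 ± 28.0 in “OHT” (n = 11). Of the 10 “OHT + DREADD” libraries 7 lay below the lowest “OHT” library, and the 3 others overlapped it. The log2 fold change was -0.78 (SE 0.19, 95% interval -1.16 to -0.40, unadjusted p = 0.00033). It missed the threshold over all genes (adjusted p = 0.180, edgeR), where DEGs were 0.0956% of 15694 genes tested. The call depended on the method, with an adjusted p of 0.070 in DESeq2 and 0.012 in limma-voom. It was 0.076 with sex as a covariate, 0.033 without “OHT + DREADD” 2 and 0.079 without “OHT + DREADD” 6. Over all alternatives the lowest was 0.012. With the reads of Hbb-bt and Hbb-bs summed the adjusted p was 0.620, a value of the pair, whose reads were mostly of Hbb-bs. The size ran from -0.92 to -0.64 when single libraries were left out.

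The other 6 genes were not called in this comparison by edgeR, DESeq2 or limma-voom. The log2 fold changes were -0.41 for Hba-a1, -0.31 for Hba-a2, -0.39 for Hbb-bs (SE 0.20) and -0.53 for Alas2 (SE 0.27), and 0.09 for S100a8 and 0.20 for S100a9. Against “SHAM + DREADD”, “OHT + DREADD” gave -0.84 for Hbb-bt (SE 0.23, adjusted p = 0.547 in edgeR), -0.51 for Hbb-bs (SE 0.21) and -0.54 for Alas2 (SE 0.22). These 3 had an unadjusted p under 0.05, as did 7.13% of all genes tested. They also varied together over the colliculi (pairwise r of 0.69 to 0.95), so they are not 3 separate observations. Of the 7 genes 0 were DEGs, while DEGs were 0.0192% of genes tested. DESeq2 and limma-voom called none. This comparison shares the “OHT + DREADD” libraries with the one before. Against “SHAM”, Hbb-bt was -0.62 (SE 0.30, adjusted p = 0.696). In the order of mean levels, “SHAM + DREADD” (82.7 CPM), “OHT” (80.9) and “SHAM” (73.6) were neighbours whose differences in Hbb-bt were within their SEs, with “OHT + DREADD” (46.6) last.

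The interaction of OHT and stimulation, the difference between the effect of OHT with and without stimulation, was -1.01 for Hbb-bt (SE 0.40, adjusted p = 0.507 in edgeR). It was -0.80 for Alas2 (SE 0.45) and -0.68 for both Hba-a1 and Hbb-bs. None of the 7 was called, and called genes were 0.0433% of 16169 tested. At an unadjusted p under 0.05 only Hbb-bt passed, beside 7.94% of all genes tested. DESeq2 and limma-voom were not run for the interaction.

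Because the log2 fold changes of Hbb-bt and Hbb-bs differed, the share of Hbb-bt in the reads of the pair was computed per colliculus. This measure was chosen after the values were seen. An equal relative change of both genes leaves the share as it is. The share was 18.8 ± 2.07% in “OHT + DREADD” (SD, n = 10, range 15.8 to 21.3), 23.6 ± 2.32% in “OHT” (n = 11, 20.1 to 27.9), 22.7 ± 1.963% in “SHAM” (n = 10, 19.5 to 25.1) and 22.3 ± 2.73% in “SHAM + DREADD” (n = 10, 18.1 to 27.7). Of 11 “OHT” libraries 8 lay above the highest “OHT + DREADD” library, and all 10 “OHT + DREADD” libraries lay below the median of each other group.

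The differences are given as a description, with no test, since the values that prompted the measure come from the same libraries. The share in “OHT + DREADD” minus that in “OHT” was -4.83 percentage points, and -5.18 to -4.41 when single libraries were left out. Against “SHAM + DREADD” it was -3.45 points (-3.91 to -2.85). “OHT” minus “SHAM” was 0.92 points, and “SHAM + DREADD” minus “SHAM” -0.46 points. Within “OHT + DREADD” the share was 19.4 ± 2.04% in the 5 animals with Xist above the Y-linked genes and 18.3 ± 2.17% in the 5 others. In “OHT” it was 20.6% in the 2 animals with Xist above and 24.3% in the 9 others, so that within OHT the difference between the groups was smaller in animals with Xist above. The share of Hba-a2 in the α-globin pair was 41.7 ± 2.22% in “OHT + DREADD” and 40.5 ± 3.40% in “OHT”, and its differences over the same 4 comparisons ran from -2.58 to 1.15 points. The share of Hbb-bt in the 3 globin-rich RGC libraries was 28.9%, 22.5% and 29.3%, from another library chemistry. Why the β-globin share differed was not tested. The shares are of reads that align to 1 copy only.

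**Figure D4:**
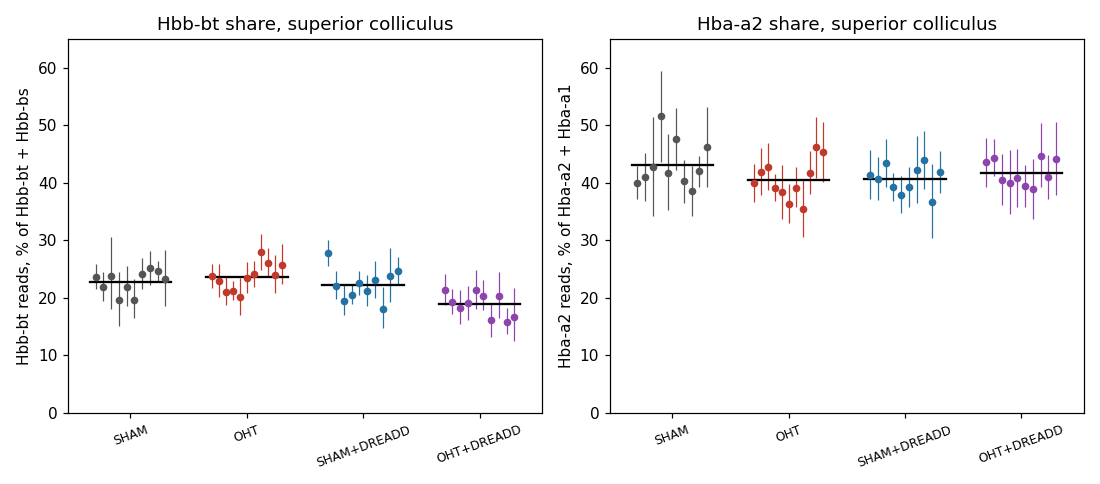
Share of Hbb-bt in the reads of Hbb-bt and Hbb-bs (left) and of Hba-a2 in those of Hba-a2 and Hba-a1 (right), in percent, per colliculus, with exact 95% binomial intervals and a line at the group mean. The “OHT + DREADD” mean of Hbb-bt is 18.8% and that of the other groups 22.3 to 23.6%.

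S100a8 and S100a9 were low in the colliculus and showed another pattern. S100a8 was 2.39 to 12.1 CPM (median 4.62) in “SHAM”, 3.07 to 19.99 (5.39) in “OHT”, 2.37 to 10.5 (7.04) in “SHAM + DREADD” and 2.07 to 18.8 (5.76) in “OHT + DREADD”. S100a9 was 0 to 20.3 CPM, with medians of 1.81, 1.83, 2.55 and 2.39 CPM. Both were highest in “OHT + DREADD” 1 (18.8 and 20.3 CPM) and “OHT” 11 (19.99 and 13.8 CPM). The groups overlapped throughout and no difference was called. Without both libraries the log2 fold change of S100a9 in “OHT + DREADD” over “OHT” turned from 0.20 to -0.26.

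Over the 41 colliculi the genes fell into a red cell set and the pair of S100a8 and S100a9. All 10 pairs among the 4 globins and Alas2 correlated, as did S100a8 with S100a9, giving 11 of 21 pairs with an adjusted permutation p of at most 0.05. Hba-a1 and Hba-a2 had the highest correlation of log2(CPM + 1) (Pearson r = 0.97, Spearman ρ = 0.97), and Hbb-bs and Hba-a1 had r = 0.92 (ρ = 0.91, permutation p = 1e-05 for each, the smallest that 100000 resamples can give, adjusted p = 1.9e-05). The part of shared sequence in this was not tested. Alas2, which shares none, had r = 0.71 with Hbb-bs (ρ = 0.67, r = 0.63 without the 2 libraries farthest from the median) and 0.33 to 0.85 within the 4 groups. S100a8 and S100a9 had r = 0.73 (ρ = 0.68, permutation p = 1e-05, r = 0.62 without 2 libraries), and 0.72 to 0.77 within the groups. No pair of a red cell gene and a neutrophil gene passed. Hbb-bs and S100a8 had r = -0.16 (ρ = -0.26, permutation p = 0.32, adjusted p = 0.55), and the other 9 pairs had r between -0.15 and 0.04.

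**Figure D5:**
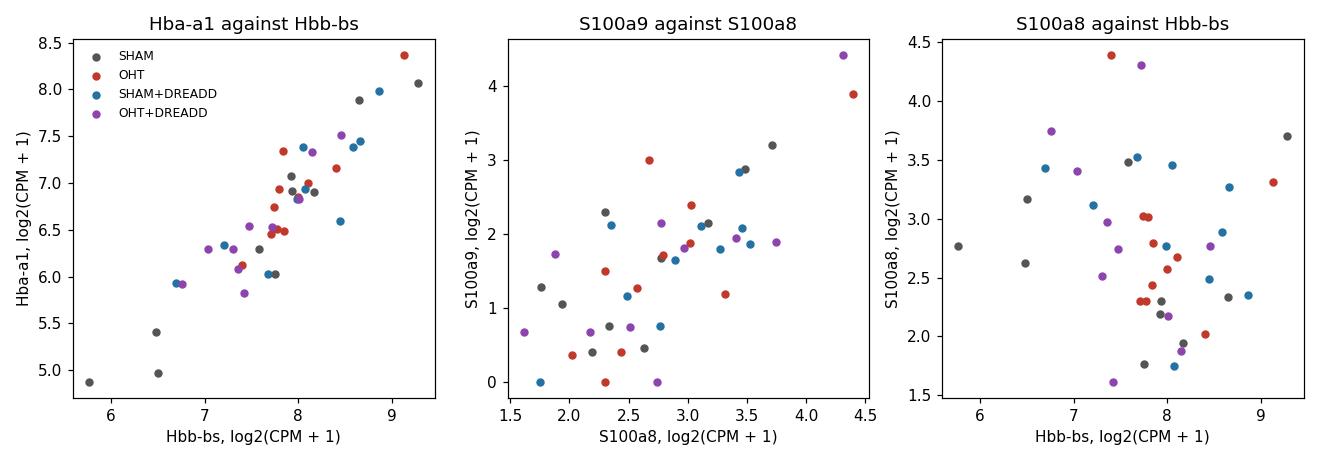
log2(CPM + 1) of pairs of genes over the 41 colliculus libraries, coloured by group. Hba-a1 rises with Hbb-bs (r = 0.92) and S100a9 with S100a8 (r = 0.73), whereas S100a8 and Hbb-bs show r = -0.16.

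Of the further red cell genes only Bpgm, Fech and Slc25a37 passed the filter, so the others could not appear among genes like Hbb-bs. Beyond the 7 genes, the genes most like Hbb-bs over the colliculi were not red cell genes. By Spearman ρ over 41 libraries and 16162 genes these were Zfp189 (0.61), Ptn, a growth factor (0.57), Gm14328 (0.56), Csnk2a1, a kinase subunit (0.55), Gm13641 (0.55), Aqp4, the astrocyte water channel (0.53), Gm5100 (0.51) and C330011M18Rik (0.50). The members were left out of this ranking, and the other 3 globins had values of 0.91 (Hba-a1, Hba-a2) and 0.93 (Hbb-bt), and Alas2 0.67. In RGC libraries the most alike of 19227 genes were Gmnn (0.62), Nthl1 (0.61), Gm26649 (0.57), Kifc5b (0.56), Wdr55 (0.54), Zfp719 (0.53), Clcc1 (0.52) and Rictor (0.52). These values are descriptions, and the highest of many genes are high in part by selection. Over all genes the median ρ was -0.06 in the colliculus and 0.01 in RGCs.

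Of 14 further red cell genes in the colliculus table only 3 passed the filter in each of the 4 comparisons: Bpgm (mean 55.5 CPM), Fech, the last enzyme of heme synthesis (24.4 CPM), and Slc25a37, a mitochondrial iron carrier (21.1 CPM). Their summed list level was 83.8 to 114 CPM, against 120 to 1283 CPM for the 4 globins. Bpgm, which sets the oxygen affinity of hemoglobin in red cells, had ρ = 0.21 with Hbb-bs, while Slc25a37 had -0.16 and Fech -0.14. Embryonic globins were at or near 0 in both tissues, and the globin genes Cygb (mean 185 CPM) and Ngb (7.16 CPM) passed in the colliculus. None of the further red cell, globin, heme, neutrophil or platelet genes was a DEG in the tested comparisons. In “OHT + DREADD” against “OHT” colliculi, 10 of 13 tested genes of heme synthesis and turnover had a positive log2 fold change. Their median was 0.12, against 0.02 over all genes and -0.39 for the 7 genes. Of the 13, 0 had an unadjusted p under 0.05 in edgeR, beside 7.39% of all genes tested. Against “SHAM + DREADD”, 5 were positive and 8 negative (median -0.011), with a median of -0.41 for the 7 genes. In “SHAM + DREADD” against “SHAM”, 10 were positive (median 0.049), with a median of 0.25 for the 7 genes.

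The gene of lowest p among the platelet genes was Itga2b, the α-subunit of the platelet fibrinogen receptor. Its log2 fold change was -0.93 in “OHT + DREADD” over “OHT” (SE 0.23, adjusted p = 0.170, edgeR) and -0.62 over “SHAM + DREADD” (SE 0.25). Pf4, the gene of that list with the highest mean (33.9 CPM), had log2 fold changes of 0.11 and -0.22. The rest of the list had means of at most 3.49 CPM, and whether the Pf4 reads came from platelets was not tested. Of 17 further neutrophil genes, Lyz2 (mean 1323 CPM), which microglia also express, led in the colliculus, and only 4 to 6 passed the filter per comparison. Next were Lcn2 (18.7 CPM), Mmp9 (15.1 CPM) and Mmp8 (4.65 CPM). Every other gene of that list had a mean of at most 0.744 CPM there, against 6.71 for S100a8 and 3.02 for S100a9. In RGCs, Retnlg, a neutrophil gene, had a log2 fold change of 1.35 in “OHT + DREADD” over “SHAM + DREADD” (SE 0.42, adjusted p = 0.266, edgeR) with reads in 4 of 41 libraries. No lymphocyte gene of the 8 listed passed the filter in any colliculus comparison.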

How the data were processed

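RNA of sorted RGCs (Smart-Seq2) and of superior colliculi (QuantSeq, from the 3′ end of transcripts) was measured in 41 libraries each. The authors aligned reads to mm10 with HISAT2, discarded reads with several alignments, used SAMtools 1.5 and counted with HTSeq (2.7.14 as given), with FastQC 0.11.7. They deposited raw counts per Ensembl gene, without normalization. The annotation release and the strand setting are not given in the sources used here. The labels do not say what replicate samples share, and p-values measure the spread between samples.

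Groups came from sample titles. Members and gene lists were chosen with earlier results of these data known. Per comparison, genes with over 5 reads in at least 2 samples were fitted in edgeR 4.0.16 (R 4.3.3) with TMM factors and the quasi-likelihood test, a prior count of 2 and Benjamini-Hochberg adjustment. DEGs passed an adjusted p of 0.1 and an absolute log2 fold change of 1.3 (RGC) or 0.5 (colliculus). The interaction, which has no fold threshold, used all 4 groups. SE is the size of the log2 fold change over the square root of F, and intervals of log2 fold changes are normal 95% intervals. All 7 members are named. Of related lists up to 4 genes of lowest p per comparison or of highest level, and the 8 genes most like Hbb-bs, may be named. Alternatives were RLE factors, library size alone, other filters, DESeq2 1.42.0, limma-voom (limma 3.58.1), a replicate block, another prior count, sex as a covariate, summed globin copies, 1 fit of all groups and leaving out libraries. Scripts were tested on simulated data. Promoters are RefSeq's, gene models GENCODE M21's. Python 3.11.15 and scipy 1.17.1 gave correlations and permutation tests. 1 marker of another retinal cell type, and the list that holds it, are not reported here.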

Additional observations from a re-analysis of the deposited data

Results flagged for a closer look

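Of 40 sets of 10 libraries (a gene in a group) 12 had a library far from the other 9, where chance alone would give about 1 in 20 for normally distributed values. That rate does not hold here, since many sets are mostly 0. A set with reads in 1 library only, as S100a9 in RGC “OHT + DREADD” and “SHAM + DREADD”, is picked out whatever its level, and the genes were chosen with these values known. In RGCs, “SHAM + DREADD” 8 stood apart for Hba-a1 (116 CPM), Hba-a2 (91.6), Hbb-bs (86.1), Hbb-bt (35.6) and Alas2 (1.34). “SHAM” 6 stood apart for Hbb-bs (204 CPM) and S100a9 (2.85), and “SHAM” 2 for Alas2 (4.52). “OHT + DREADD” 8 stood apart for S100a8 (12.7 CPM) and S100a9 (5.54), and “SHAM + DREADD” 7 for S100a9 (0.244 CPM, 1 read). In the colliculus, “OHT + DREADD” 1 stood apart for S100a9 (20.3 CPM). The “OHT” groups of 11 libraries were not examined in this way, and no interaction passed its test.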

How the results depend on the processing

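The number of these genes called was 0 in every comparison as fitted. It was 4 in RGC “OHT” against “SHAM” with no filter on low counts (the 4 globins), 1 there without the 4 “SHAM” libraries of most detected genes (Hbb-bs), and 1 in RGC “OHT + DREADD” against “SHAM + DREADD” with no filter (S100a8). In colliculus “OHT + DREADD” against “OHT” it was 1 (Hbb-bt) with no filter (log2 fold change -0.80), DESeq2 (-0.79), limma-voom (-0.89), the replicate block (-0.87) or sex as a covariate (-0.78), and 0 to 1 over the libraries left out (1 without “OHT + DREADD” 2 or 6). In no pair of groups did all same-numbered samples correlate above 0.1, a rule that cannot exclude weaker structure shared by a replicate number. In colliculi of “OHT + DREADD” and “SHAM + DREADD” the median r was 0.11 for same-numbered samples and -0.02 for others. There 6 of 10 same-numbered pairs were above 0.1. Medians of same-numbered samples in the other pairs of groups ran from -0.07 to 0.05. The block changed no other call. The 11 correlated pairs were 11 under every alternative run.

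In the tested comparisons these directions turned. In RGC “OHT + DREADD” against “SHAM + DREADD”, DESeq2 gave 0.58 for Hba-a2 and 0.68 for Hbb-bt, and limma-voom 0.48 for Hba-a1 and 1.25 for Hbb-bt. Over single libraries left out, Hba-a1 ran from -1.005 to 0.75, Hba-a2 from -1.64 to 0.49 and Hbb-bt from -1.63 to 0.49. In colliculus “OHT” against “SHAM”, limma-voom gave -0.013 for S100a8 and -0.64 for S100a9, and the block -0.24 for S100a9. Left-out libraries gave -0.079 to 0.40 for Hba-a2, -0.020 to 0.43 for Hbb-bs, -0.041 to 0.38 for S100a8 and -0.27 to 0.44 for S100a9. In “OHT + DREADD” against “OHT” S100a8 ran from -0.18 to 0.34 and S100a9 from -0.69 to 0.62, and S100a9 was -0.26 without both libraries of most S100 reads. Against “SHAM + DREADD”, S100a8 was -0.11 with limma-voom, -0.068 with the block and -0.30 with sex, and S100a9 -0.15 with limma-voom and -0.44 with sex. Their ranges over left-out libraries were -0.23 to 0.15 and -0.43 to 0.64. In “SHAM + DREADD” against “SHAM” S100a9 was 0.24 with sex and -0.28 to 0.19 over left-out libraries. The interaction of S100a8 was 0.034 with the block. In the described RGC comparisons, beside what is given above, the block gave -0.082, -0.29, -0.12 and -0.087 for Hba-a1, Hba-a2, Hbb-bs and Hbb-bt in “OHT” against “SHAM”. It turned Hbb-bt to 0.0061 in “SHAM + DREADD” against “SHAM” and Hba-a1 to -0.042 in “OHT + DREADD” against “OHT”. Alas2 in “SHAM + DREADD” against “SHAM” turned from -0.68 to 0.77 in DESeq2 and 0.62 with sex. In “OHT + DREADD” against “OHT”, limma-voom turned Hbb-bs to 0.043, and summed copies gave -0.23 for the α-globins and -0.035 for the β-globins. Over single libraries left out, Alas2 ran from -0.96 to 0.19 in “SHAM + DREADD” against “SHAM” and Hbb-bt from -0.23 to 0.65 in “OHT + DREADD” against “OHT”. The cause of these changes was not tested. RGC counts of S100a8, S100a9 and Alas2 are too few for tests in most comparisons.

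Counts of DEGs over all genes also moved. Without the filter the 4 RGC comparisons gave 217 to 292 DEGs, against 12, 15, 2 and 7 as fitted, and with limma-voom 0, 1, 3 and 1. In colliculus “OHT + DREADD” against “OHT” the 15 DEGs were 28 with DESeq2, 28 with the block, 33 in 1 fit of all 4 groups and 118 with sex. In “SHAM + DREADD” against “SHAM” the 13 DEGs were 20 without the filter and 2 with sex, and in “OHT + DREADD” against “SHAM + DREADD” the 3 DEGs were 5 with DESeq2, 11 in 1 fit and 0 with limma-voom or sex.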
